A study of Rattus norvegicus with 8 samples.

Results

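The immediate early transcription factors of the EGR, NR4A and KLF families were followed across 8 Affymetrix expression arrays of the rat prostate. The members were Egr1, Egr2 and Egr3, Nr4a1, Nr4a2 and Nr4a3, and Klf2, Klf4, Klf6 and Klf10. All probe sets that the platform annotation gives to exactly 1 of these symbols were taken, which made 20 of 31042 non-control probe sets and 10 of 14217 named genes. Of the 20, the EGR genes had 4, the NR4A genes 6 and the KLF genes 10. A filter on low mean values kept 19 for testing, and 1 of the 5 Klf2 probe sets (1386040_at), which read between 1 and 10 intensity units on the 8 arrays, was not tested. The filter used the mean over all 8 arrays, so a probe set could pass through the group where it was bright. For each gene the brightest probe set is called the main one.

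The arrays formed 4 groups of 2, from Sprague-Dawley males of generation 3 after exposure of the founders. Whole ventral prostate came from control and vinclozolin lineage males at 180 days of age, with several animals pooled per sample. Prostate epithelium came from control and vinclozolin lineage males at 45 days, with 11 animals pooled per sample. Vinclozolin is a fungicide that blocks the androgen receptor, and founder females had received intraperitoneal injections from embryonic day 8 to day 14. The label on treatment gives only the vehicle, DMSO, for all 8 samples, so the lineages rest on the sample titles. Age and preparation changed together between the whole prostate and epithelium groups and cannot be told apart. It is not stated that the 2 samples of a group are from different animals, so the p-values measure the spread between pooled samples, which may be technical.

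Immediate early genes are transcribed within minutes of a stimulus, without new protein synthesis, because the factors that switch them on are already present and are activated by phosphorylation. Serum response factor, which binds the CArG box, and the cyclic AMP response element binding protein CREB are the best known of these. EGR proteins bind GC-rich DNA through zinc fingers, NR4A proteins are orphan nuclear receptors whose activity follows their amount, and KLF proteins are zinc finger factors of GC-rich and CACCC elements. In prostate, EGR1 is known for its high level in tumours, and KLF6 and KLF4 for roles in growth control. Early genes also respond to mechanical and enzymatic handling of tissue, as is well known from dissociated cells.

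The promoter letters of the members were searched for the sites of these factors near their starts. RefSeq promoters of rat build GRCr8, each from 250 bases before to 50 after a start, were matched for 6 of the 10 members (Egr1, Egr2, Nr4a1, Nr4a2, Klf4 and Klf6). Those of Egr3, Nr4a3, Klf2 and Klf10 were not used here. A CArG box lay in the windows of Egr1 (2 matches), Egr2 (1 match) and Klf6 (1 match), while 1.64% of 33469 promoters held at least 1 and 0.0209% held at least 2. The 4 matches are printed 5′ to 3′ on the strand of the gene, with the motif in capitals, because the 2 EGR genes that could be matched both carry it close to the start. They lie at chr18:26736963-26736992 and chr18:26736985-26737014 (plus strand) for Egr1, chr20:21054505-21054534 (minus strand) for Egr2 and chr17:69458660-69458689 (minus strand) for Klf6, and begin 105, 83, 83 and 201 bases before the start.
Egr1 outer CArG box: gtcggtccttCCATATTAGGgcttcctgct
Egr1 inner CArG box: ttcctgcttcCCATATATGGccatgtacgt
Egr2 CArG box: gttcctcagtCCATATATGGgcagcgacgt
Klf6 CArG box: aataggaaggCCTTTAATGGagaggctcgg

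The short site of CREB, CGTCA, was searched on both strands. It is contained in the full site TGACGTCA, which was in 0 of the 6 member windows and in 1.83% of all. CGTCA had 4 matches in the Nr4a1 window. At least 1 match lay in 21.2% of all promoters, at least 2 in 4.96% and at least 3 in 1.11%. Egr1 had 2 matches, Egr2 and Nr4a2 had 1 each, and Klf4 and Klf6 had 0. In both Egr1 and Egr2 a CArG box began 83 bases and a CGTCA 66 bases before the start. The Nr4a1 pair nearest the start (chr7:134260046-134260070 and chr7:134260075-134260099, plus strand) and the shared pair of Egr1 (chr18:26737002-26737026, plus strand) and Egr2 (chr20:21054493-21054517, minus strand) are printed with CGTCA in capitals. For Nr4a1, Nr4a2 and Egr2 the start used by the table lies inside the annotated span of the gene. The EGR site GCGNGGGCG had 1 match in the Nr4a1 window and in 4.98% of all promoters, and the NR4A site AAAGGTCA in 0 of 6 windows and in 1.43% of all. These matches describe letters and not bound sites.
Nr4a1 outer of the pair: gggccgtgtgCGTCAgtggcgcccc
Nr4a1 inner of the pair: cctctccatgCGTCAcggagcgctt
Egr1 CGTCA: tggccatgtaCGTCAcggcggaggc
Egr2 CGTCA: tgggcagcgaCGTCAcgggttattg

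Marker genes were read first, because the label of the epithelium samples bears on every comparison with whole prostate. Array medians ranged from 28.7 to 38.7 intensity units, and the 3′ to 5′ ratio of the actin control probes from 3.14 to 3.98 in whole prostate and from 2.26 to 2.57 in epithelium. Luminal markers were present in both preparations, with probasin (Pbsn) at 6953.5 and 7341.6 in control whole prostate and 7277 and 7474.3 in control epithelium. Of 12 luminal markers 3 were called higher and 3 lower in control epithelium, with a median of -0.20. Markers of smooth muscle, fibroblasts and endothelium were mostly higher in the samples labelled epithelium, at 45 days, than in whole prostate at 180 days. Whole prostate at 45 days was not measured, so depletion of stroma by the preparation cannot be judged. Of 10 smooth muscle markers 7 were called higher and 0 lower in control epithelium than in control whole prostate, with a summed intensity of 7312 to 7546 in whole prostate and 19975 to 20243 in epithelium. Smooth muscle actin (Acta2) read 118.9 and 165.2 against 2117.1 and 1788.7. Fibroblast markers went the same way (9 of 10 higher, 0 lower, sums of 3514 to 3552 against 10787 to 11467), as did endothelial ones (6 of 11 higher, 0 lower, sums of 367 to 368 against 914 to 915) and basal ones (7 of 10 higher, 0 lower, sums of 1168 to 1188 against 4333 to 4466). Adipocyte markers went the other way (0 of 7 higher, 5 lower, sums of 2352 to 2586 against 205 to 237), and so did macrophage markers by their calls (0 of 12 higher, 5 lower, sums of 7622 to 8243 against 8837 to 10290). Skeletal muscle markers split (3 of 11 higher, 6 lower, median -1.42), while their sums were 3133 to 3327 against 8080 to 8134. Of 6 mast cell markers 0 were higher and 4 lower. Over all genes, 12.8% were called higher and 15.6% lower on their main probe set. In bulk RNA, fewer cells of a type and less RNA per cell cannot be told apart.

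**Figure D1:**
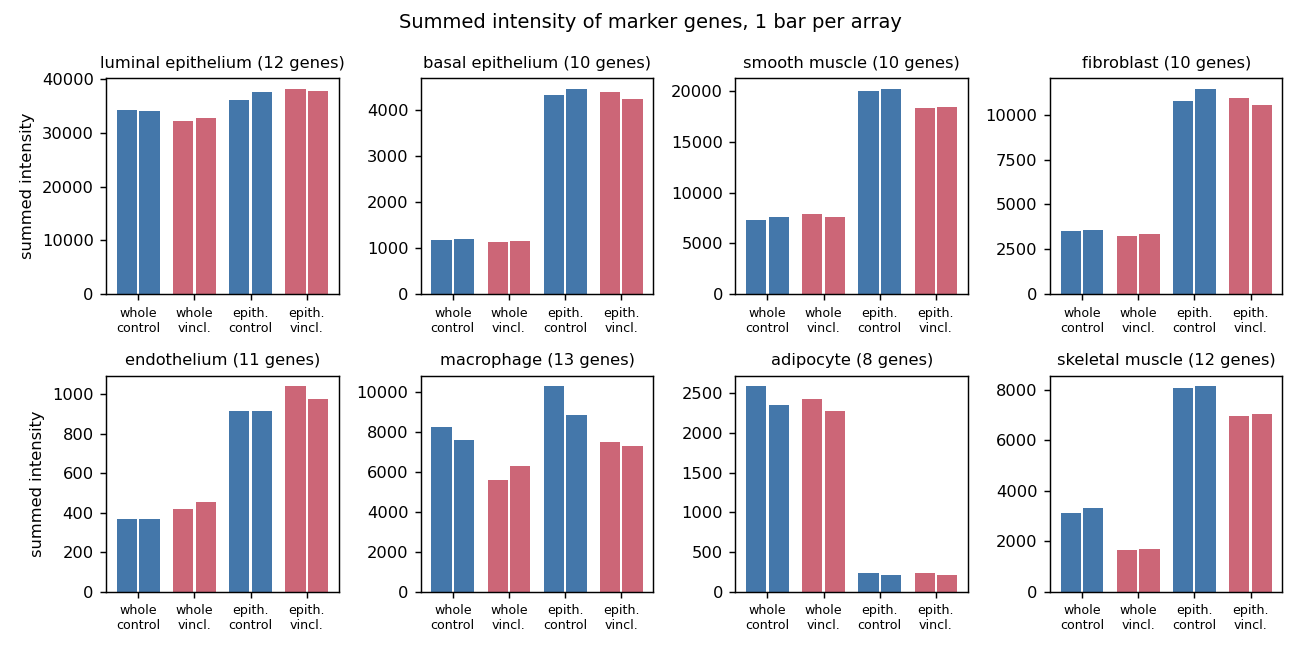
Summed intensity as deposited of the marker genes of 8 cell types, with 1 bar per array and 2 arrays per group. The lowest smooth muscle bar of the epithelium groups stands at 18358 and the highest of whole prostate at 7929, and the adipocyte bars go the other way.

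Between the preparations most of the early factors stood far apart, and all that were called were higher in epithelium. In control animals, 16 of the 19 tested probe sets were higher in epithelium at 45 days than in whole prostate at 180 days and 0 were lower, against 12.9% of all tested probe sets called higher. The arrays of the groups did not overlap for 17 of them, all in that direction, against 29.2% of all. The called ones were probe sets of 8 of the 10 genes, and Egr3 and Klf10 had none. The median log2 difference over the 10 main probe sets was 2.33, against -0.05 over all probe sets tested, and 0.718% of all probe sets lay above 2.33. Values are log2(intensity + 16) differences given with the fitted standard error (SE), for n = 2 arrays per group, and limma's Benjamini-Hochberg adjusted p over 21729 probe sets. The added 16 understates the differences of dim probe sets.

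Egr1, a zinc finger activator induced by growth factors and stress, read 407.2 and 384.5 in control whole prostate and 5723.1 and 6155.8 in control epithelium. Both epithelium arrays stood far above both whole prostate arrays. The difference was 3.80 ± 0.12, or 14-fold (adjusted p = 2.9e-05), the 23rd highest of 21729. Egr2, its relative known from nerve myelination and lymphocyte control, was near the bottom of the scale in whole prostate, at 22.9 and 20.4, and read 462.2 and 420.2 in epithelium. Its difference was 3.50 ± 0.12 (11.3-fold, adjusted p = 3.6e-05), with 4.11 for an added constant of 1 and 2.53 for 64. The other Egr2 probe set (1398266_a_at) read at most 30.1 on any array and differed by 0.17 ± 0.21 (adjusted p = 0.59), so the 2 probe sets disagree in the control arrays. Egr3, whose single probe set read 17.1 and 9.0 against 47.3 and 14.6, gave overlapping groups and 0.42 ± 0.35 (adjusted p = 0.42). Its 95% interval ran from -0.41 to 1.25.

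The NR4A receptors rose in all 6 of their probe sets. The main Nr4a3 probe set read 8.1 and 12.1 in control whole prostate, where it was under the added 16, and 520.6 and 562.8 in control epithelium. The groups were far apart, and the difference was 4.35 ± 0.13 (adjusted p = 2.9e-05). Its size depends on the added constant, at 5.42 with a constant of 1 and 3.02 with 64, against 3.86 and 3.65 for Egr1, so no order between these genes is given. The other 2 Nr4a3 probe sets gave smaller differences, 2.04 ± 0.24 and 1.53 ± 0.16. Nr4a1, which is also called Nur77 and is known for its role in the death of T cells, read 734.1 and 756.1 against 3042.7 and 3293.2. No array of one group reached the other, and the difference was 2.10 ± 0.11 (4.28-fold, adjusted p = 9.4e-05). Nr4a2, or Nurr1, which is needed for dopamine neurons, read 183.6 and 166.5 against 554.1 and 749.9. The epithelium arrays were the more scattered pair, and the difference was 1.86 ± 0.16 (3.63-fold, adjusted p = 0.00063), with 2.03 ± 0.18 on its other probe set.

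Among the KLF members, Klf6, Klf2 and Klf4 rose and Klf10 did not pass. Klf6, a growth-restraining factor that is known to be alternatively spliced in prostate tumours, read 334.4 and 309.2 in control whole prostate and 2384.4 and 2700.5 in control epithelium. All 3 Klf6 probe sets separated the groups, with 2.94 ± 0.11 (7.70-fold, adjusted p = 4.7e-05) on the main one and 2.02 ± 0.11 and 3.73 ± 0.16 on the others. Klf2, a factor of quiescent endothelium and lymphocytes, read 89.3 and 93.2 against 584.5 and 557.5. Its main probe set differed by 2.46 ± 0.11 (5.52-fold, adjusted p = 6.4e-05). The other 3 tested Klf2 probe sets were called at 0.92 ± 0.17, 2.70 ± 0.21 and 1.42 ± 0.40. The latter pair were under the added 16 in control whole prostate, and over the alternatives they ran from 1.45 to 4.36 and from 0.61 to 3.12. The last of these (1394068_x_at), of a kind that may bind related transcripts, had an adjusted p of 0.04 and lost the call in several alternatives (adjusted p from 0.01 to 0.19). The call at 0.92, on 1375248_at, was lost without control whole prostate replicate 1 (adjusted p = 0.053) or replicate 2 (adjusted p = 0.057).

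Klf4, a factor of epithelial differentiation and cell cycle exit, read 451 and 411.6 against 2072.1 and 1839.4. Both epithelium arrays were above both whole prostate arrays, and the difference was 2.19 ± 0.13 (4.57-fold, adjusted p = 0.00015). Klf10, a factor induced by TGF-beta, read 302.4 and 272.6 against 337.4 and 304.8. The groups just failed to overlap, and the difference was 0.23 ± 0.18 (adjusted p = 0.38), with a 95% interval from -0.19 to 0.66. With each array centred on its median instead of quantile normalisation, Klf10 came to -0.08 (adjusted p = 0.75), and the median of all probe sets moved from -0.05 to -0.20. Under that scaling 16 member probe sets were still called higher and 0 lower, and their median was 2.06. The share of all calls that were higher was 46.3% after quantile normalisation, 28.9% after median centring and 53.8% for values as deposited.

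**Figure D2:**
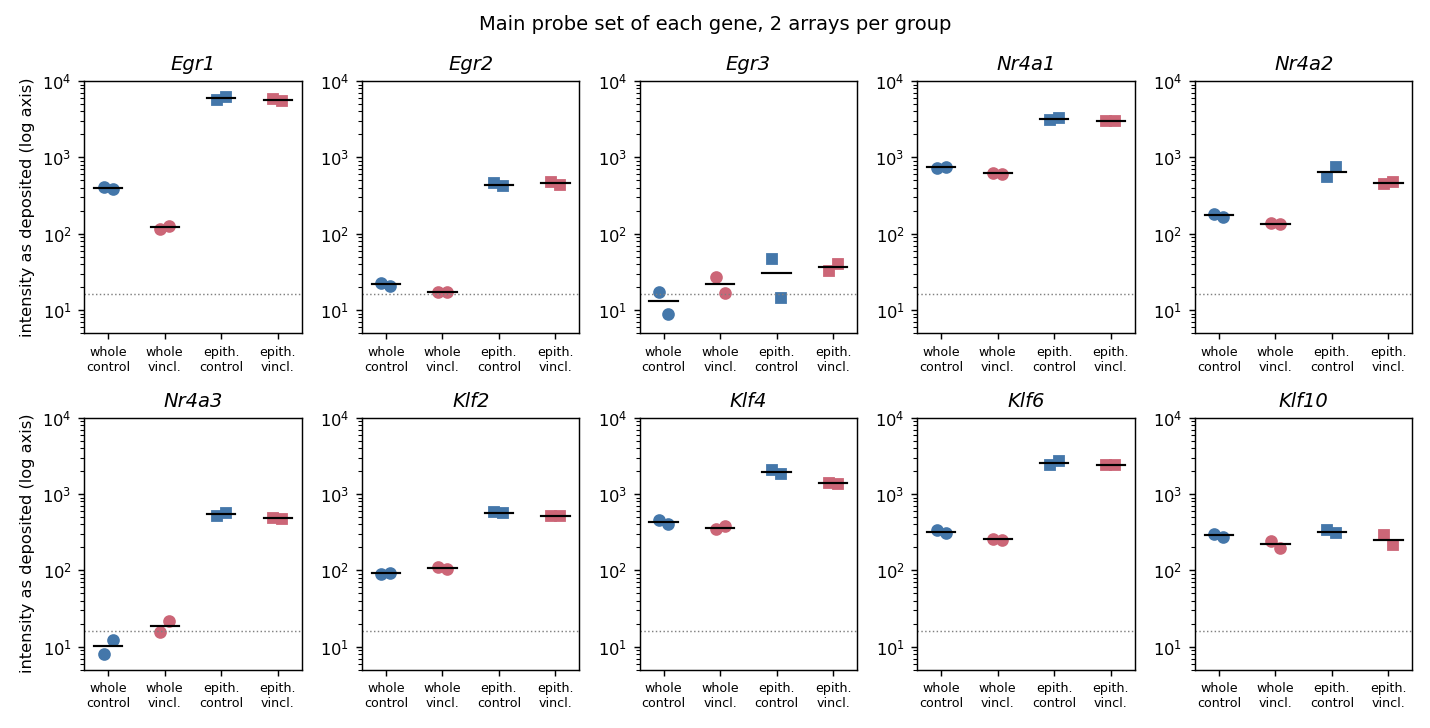
Intensity as deposited (log axis) of the main probe set of each of the 10 genes, with 1 point per array, a bar at the mean of the 2 arrays of a group and a dotted line at the added 16. The epithelium points stand clear of the whole prostate points for 8 genes, while those of Egr3 and Klf10 lie close together.

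The vinclozolin lineage arrays give the same comparison of preparations on other samples, an analysis added after the data were seen. There, 17 of 19 member probe sets were higher in epithelium and 0 lower, against 13.1% of all probe sets called higher and 27.4% called in either direction, and the median over main probe sets was 2.18, against -0.06 for all. The probe set called here but not in control arrays was the other Egr2 one (1398266_a_at), at 0.78 ± 0.21 (limma adjusted p = 0.036). This probe set and Klf2 1394068_x_at averaged log2 4.54 and 4.41 in vinclozolin whole prostate, under the filter level of 4.89. The 2 genes without a call were again Egr3 (0.28 ± 0.35) and Klf10 (0.20 ± 0.18). Egr1 gave 5.32 ± 0.12 (39.8-fold), Nr4a3 3.84 ± 0.13, Egr2 3.83 ± 0.12 and Klf6 3.17 ± 0.11. Nr4a1 gave 2.26 ± 0.11, Klf2 2.09 ± 0.11, Klf4 1.92 ± 0.13 and Nr4a2 1.70 ± 0.16.

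**Figure D3:**
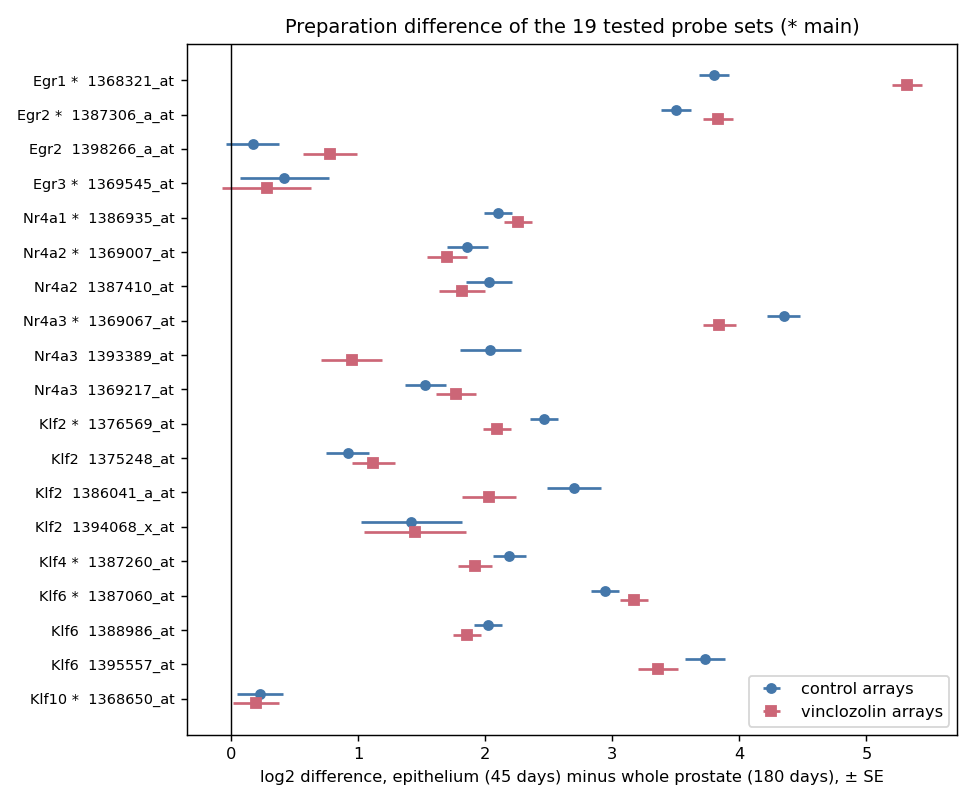
Log2 difference of epithelium minus whole prostate, with SE, for the 19 tested probe sets, in control arrays (circles) and vinclozolin arrays (squares), with main probe sets starred. Most points lie well above 0, those of Egr3 and Klf10 lie close to it, and Egr1 shows the widest gap between the lineages, 3.80 against 5.32.

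Several measures moved with the preparation beside the members. The stromal and basal marker sums given above were higher in epithelium, the actin 3′ to 5′ ratio was lower, and the heat shock genes Hspa1a and Hspb1, chaperones induced by protein damage, were higher by 3.25 ± 0.10 and 2.56 ± 0.13. Of 12 heat shock genes 6 were called higher and 1 lower. Their differences were positive for 8 and negative for 4, with a median of 0.48. The part of these measures in the early gene difference was not tested. The mean pattern of the members over the 8 arrays was most like those of the smooth muscle gene Actg2 (Pearson r = 0.9995), the early gene Ier3 (0.9995), Crem (0.9992), Cdh11 (0.9991), the smooth muscle gene Cnn1 (0.9991) and Igfbp5 (0.999). Over these 8 arrays, which share the split by preparation, 989 of 11474 other genes had r above 0.9.

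Other genes of the same response were higher in epithelium too, by counts over lists chosen with earlier results of these data known. All 9 tested AP-1 genes, the Fos, Jun and Atf partners that act with EGR factors, were called higher, with a median of 2.81. They included Atf3 (5.17 ± 0.22), Fosb (4.70 ± 0.10), Jun (3.62 ± 0.15) and Fos (2.81 ± 0.12). Of 37 further immediate early genes 30 were higher and 0 lower, with a median of 1.72. Ier3, a survival factor, was higher by 4.45 ± 0.10, Errfi1, an inhibitor of EGF receptor signalling, by 2.98 ± 0.11, Zfp36, which destabilises early mRNAs, by 2.93 ± 0.10, and Gadd45a, a stress sensor, by 2.87 ± 0.12. For comparison, 12.8% of all genes were called higher on their main probe set.

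The factors and kinases that act on early gene promoters were called in both directions. Of 15 upstream factors 5 were higher and 1 lower, with a median of 0.19. Crem, an early-induced CREB relative, was higher by 1.74 ± 0.12, Myocd, a smooth muscle partner of serum response factor, by 1.48 ± 0.25, Srf itself by 1.29 ± 0.17 and Elk3 by 0.93 ± 0.13. Crtc3, a CREB coactivator, was lower (-0.47 ± 0.14). Of 15 genes of the MAP kinase cascade 0 were higher and 4 lower, against 15.6% of all genes called lower on their main probe set, with Rps6ka3 at -1.47 ± 0.25 and Nras at -0.79 ± 0.14. Among 9 other KLF genes 3 were higher, Klf13 (1.33 ± 0.39), Klf11 (0.70 ± 0.17) and Klf5 (0.48 ± 0.13), and 0 lower, with a median of 0.20. Of 8 tested EGR and NR4A relatives and cofactors only Nr2f2 was called (0.62 ± 0.12), and the EGR corepressor Nab2, which EGR factors induce, gave 0.10 ± 0.13 (adjusted p = 0.61).

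Genes reported as targets of the members were read the same way. Of 15 reported EGR targets 10 were higher in control epithelium and 0 lower, with a median of 1.08. Il6, an inflammatory cytokine, was higher by 3.85 ± 0.21, Icam1, an adhesion molecule, by 2.65 ± 0.17, F3, which starts blood clotting, by 2.41 ± 0.16, and Igf2, a growth factor, by 1.33 ± 0.12. Of 9 reported KLF2 and KLF4 targets 5 were higher and 0 lower, with a median of 0.52. These included Tgfb1i1 (1.79 ± 0.16) and Ccnd1, the cyclin of G1 (1.46 ± 0.12). Several of these targets are known to be made by stromal or immune cells. Smooth muscle and fibroblast markers were mostly called higher in epithelium, while of 12 macrophage markers 0 were called higher and 5 lower. The part of cell make-up in the target differences was not tested.

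**Figure D4:**
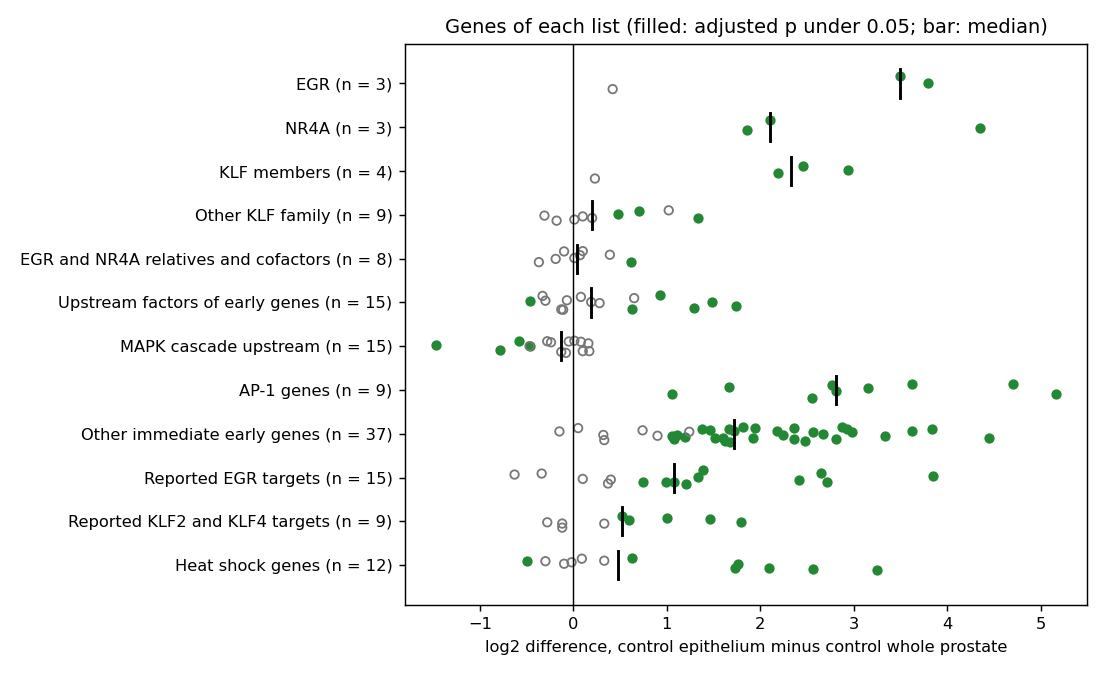
Log2 difference of control epithelium minus control whole prostate for the genes of each list, on their main probe sets, with filled points called at adjusted p under 0.05 and a bar at the median. The AP-1 genes all lie to the right, the EGR, NR4A and other early genes mostly so, and the called kinases lie to the left of 0.

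The study's main question was whether the prostate of vinclozolin lineage males differed from that of control lineage males. In whole ventral prostate at 180 days, Egr1 was the only member called, and it was lower. The probe set count was 1 of 19, against 1.74% of all tested probe sets called in either direction, 0.925% lower and 0.819% higher. Egr1 read 407.2 and 384.5 in control and 114.2 and 128.0 in vinclozolin lineage. Both vinclozolin arrays were below both control arrays, and the difference was -1.49 ± 0.12, a 2.82-fold lower value (adjusted p = 0.0036). Its 95% interval ran from -1.77 to -1.22, and it was the 51st lowest of 21729. Leaving out 1 control array kept the size but not the call, at -1.45 without replicate 1 (adjusted p = 0.07) and -1.52 without replicate 2 (adjusted p = 0.055).

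The remaining members showed small differences of both signs in whole prostate, and none passed. Over all tested probe sets of members 12 were negative and 7 positive, and the median over main probe sets was -0.26, against -0.01 for all. In the EGR family, Egr2 read 22.9 and 20.4 in control and 17 and 17 in vinclozolin lineage, which gave -0.27 ± 0.12 (adjusted p = 0.28), and Egr3 gave 0.32 ± 0.35 with overlapping groups. Both relatives of Egr1 were dim in whole prostate, close to the added 16.

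The NR4A genes split. Nr4a1 read 734.1 and 756.1 in control and 632.1 and 606 in vinclozolin lineage, without overlap, and the difference was -0.24 ± 0.11 (adjusted p = 0.28). Nr4a2 read 183.6 and 166.5 against 137.9 and 132.4, also without overlap, at -0.30 ± 0.16 (adjusted p = 0.37). Nr4a3 was positive on 2 of its 3 probe sets, with 0.36 ± 0.13 on the main one (adjusted p = 0.21) and 0.88 ± 0.24 on 1393389_at (adjusted p = 0.13), where control arrays read 17.7 and 16 and vinclozolin arrays 39.1 and 54. The latter pair did not overlap the former, but the third Nr4a3 probe set gave -0.07 ± 0.16. With a prior variance that follows the intensity (limma's trended and robust setting), 4 of 19 were called. Nr4a1 (adjusted p = 0.037), Klf6 (0.048) and Nr4a3 on 1393389_at (0.028) joined Egr1. The same setting called 1814 of all 21729 probe sets in whole prostate, against 379 in the main fit.

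The KLF members were also small. Klf6 read 334.4 and 309.2 in control and 258.8 and 252.9 in vinclozolin lineage, at -0.27 ± 0.11 (adjusted p = 0.26). Its other 2 probe sets gave -0.03 ± 0.11 and 0.13 ± 0.16. Klf4 gave -0.20 ± 0.13 (adjusted p = 0.44) and Klf10 -0.31 ± 0.18 (adjusted p = 0.41). Klf2 went the other way on its main probe set, at 89.3 and 93.2 against 112.5 and 104.4, with 0.23 ± 0.11 (adjusted p = 0.30). Its other tested probe sets gave -0.18 ± 0.17, 0.46 ± 0.21 and 0.01 ± 0.40, so the sign depended on the probe set. The groups of 2 did not overlap for 8 negative and 4 positive member probe sets, against 27.8% and 26.1% of all probe sets, and so non-overlap by itself was common.

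The genes around the members were likewise mostly without a call in whole prostate, where 0.993% of all genes were called higher and 0.906% lower on their main probe set. Among 9 AP-1 genes Fos and Fosb were lower, at -1.92 ± 0.12 and -0.85 ± 0.10, and 0 were higher, with a median of -0.04. Fos read 801 and 806.9 in control and 184.4 and 202.2 in vinclozolin lineage, and its groups did not overlap. Of 37 further early genes 2 were higher, Gadd45a (0.78 ± 0.12) and Rgs2 (0.71 ± 0.11), and 0 lower, with a median of 0.00. Of 15 reported EGR targets 0 were called, with a median of 0.14, and the 2 with the lowest p were Igf2 (0.51 ± 0.12, adjusted p = 0.087) and Ccl2 (0.59 ± 0.21, adjusted p = 0.21). Upstream factors had 0 calls of 15, the MAP kinase list 1 higher, Prkaca (0.77 ± 0.13), and the KLF target list 1 higher, the cell cycle inhibitor Cdkn1a (0.87 ± 0.13).

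Klf5, a growth-promoting relative of the KLF members, was the 1 gene called among 9 other KLF genes. It was lower, at -0.97 ± 0.13, on its main probe set (adjusted p = 0.022), and its other 3 probe sets gave -1.02 ± 0.23, -0.67 ± 0.13 and -0.67 ± 0.29 without a call. All 4 were negative, so the direction did not depend on the choice of probe set.

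Other measures moved with the lineage in whole prostate, and their part in the lower Egr1 was not tested. Skeletal muscle markers were lower (6 of 11 called lower, 0 higher, sums of 3133 to 3327 in control and 1642 to 1673 in vinclozolin lineage), and the T and NK lymphocyte sum was 228 and 257 in control and 450 and 458 in vinclozolin lineage, with 0 of 8 called. Of 12 macrophage markers 2 were called higher and 0 lower, while their summed intensity was lower, at 7622 to 8243 in control and 5592 to 6301 in vinclozolin lineage. Of 12 luminal markers 2 were called lower, Msmb (-1.55 ± 0.11) and Azgp1 (-2.10 ± 0.15), and 0 higher, with sums of 34077 to 34367 and 32222 to 32838. The 5S ribosomal RNA control probe read 462.9 and 478.6 in control and 189.2 and 184 in vinclozolin lineage, and the actin 3′ to 5′ ratio 3.74 and 3.98 against 3.37 and 3.14. Smooth muscle markers had 0 calls of 10, with 3 positive, 7 negative and a median of -0.32. Their sums were 7312 to 7546 in control and 7558 to 7929 in vinclozolin lineage. The skeletal actin gene Acta1 was among the 6 genes whose pattern over the 8 arrays was most like that of Egr1 (r = 0.9984), with Zfp91 (0.9988), Pls3 (0.9983), Lao1 (0.9978), Sparcl1 (0.9965) and Snrpf (0.9961). Here too 906 of 11483 genes had r above 0.9.

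In epithelium at 45 days, no member was called between the lineages by limma's test. The count was 0 of 19, with 2 at an unadjusted p under 0.05, against 0.0092% of all probe sets called (2 of 21729, 0.0046% in each direction) and 2471 at an unadjusted p under 0.05. Egr1 read 5723.1 and 6155.8 in control and 5855.2 and 5400.3 in vinclozolin lineage, so the groups overlapped. The difference was 0.02 ± 0.12, and its 95% interval ran from -0.26 to 0.30, which does not reach the -1.49 of whole prostate. Egr2 likewise gave 0.06 ± 0.12, with an interval from -0.23 to 0.34. The other Egr2 probe set gave 0.26 ± 0.21, and Egr3 gave 0.19 ± 0.35.

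The largest differences in epithelium were those of Klf4 and Nr4a2, both negative. Klf4 read 2072.1 and 1839.4 in control and 1402.2 and 1361.4 in vinclozolin lineage, without overlap, and gave -0.48 ± 0.13 (adjusted p = 0.28, and 0.02 with the trended and robust prior). That prior called 205 of all 21729 probe sets in epithelium. Nr4a2 read 554.1 and 749.9 against 445.8 and 477.4, at -0.46 ± 0.16 (adjusted p = 0.37). Klf10 gave -0.34 ± 0.18, Nr4a3 -0.15 ± 0.13, Klf2 -0.14 ± 0.11, Nr4a1 -0.08 ± 0.11 and Klf6 -0.05 ± 0.11. The median over main probe sets was -0.11, against 0 for all. For 10 member probe sets the vinclozolin arrays lay below the control arrays without overlap and for 2 above, against 19.7% of all probe sets in each direction. None of the 9 pathway lists held a called gene, but 0 of all 11485 genes were called on their main probe set. This count is therefore not particular to the lists. The medians were -0.25 for AP-1 genes, -0.18 for other early genes and -0.21 for reported EGR targets.

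**Figure D5:**
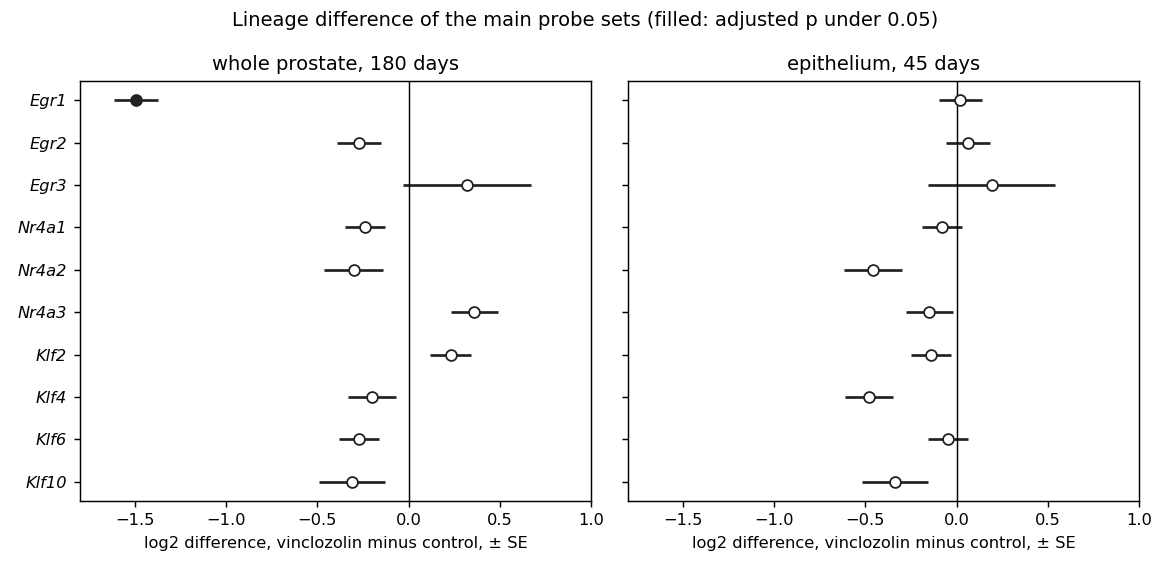
Log2 difference of vinclozolin minus control lineage, with SE, for the main probe set of each gene in whole prostate (left) and epithelium (right), with filled points called at adjusted p under 0.05. Egr1 in whole prostate, at -1.49, is the single filled point and stands apart from the other 9 genes.

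The effect of lineage on Egr1 itself differed between the preparations. The effect in epithelium minus that in whole prostate was 1.51 ± 0.16 (limma adjusted p = 0.027, 95% interval from 1.12 to 1.90). It was the 1 call among 19 member probe sets, against 0.29% of all, and 94 of 21729 probe sets had a higher value. The call did not hold with an added constant of 1 (adjusted p = 0.054), without the filter (0.063), with the replicate number as a block (0.088) or without any 1 of the 8 arrays (0.097 to 0.23), while the value stayed between 1.43 and 1.58 when an array was left out. Fos, the AP-1 gene called in the same comparison, gave 1.84 ± 0.17 (adjusted p = 0.016). Among the other members the values furthest from 0 were those of Nr4a3, at -0.51 ± 0.18 on its main probe set and -1.09 ± 0.34 on 1393389_at, and neither passed (adjusted p = 0.32 and 0.26).

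Set in order of level, the 4 groups fell into 3 patterns for all genes but Egr3 and Klf10. The order was read on the main probe sets as deposited. Between the lineages only the Egr1 step in whole prostate was called, so the other lineage steps describe array levels alone. Groups of 2 arrays of the lineages did not overlap for 27.8% of all probe sets (lower) and 26.1% (higher) in whole prostate. In epithelium the share was 19.7% in each direction. Egr1 and Egr2 were highest in the epithelium groups, whose arrays overlapped, then lower in control whole prostate and lowest in vinclozolin whole prostate. Nr4a1, Nr4a2, Klf4 and Klf6 ran from control epithelium through vinclozolin epithelium and control whole prostate to vinclozolin whole prostate, and only the 2 epithelium groups of Klf6 overlapped. Nr4a3 and Klf2 had the same epithelium order, but vinclozolin whole prostate stood above control whole prostate. Egr3 overlapped between all neighbouring groups. Klf10 was highest in control epithelium, and its other 3 groups overlapped with their neighbours. Over the 8 arrays the pairwise correlation of the members on the log2 scale ranged from 0.137 (Egr3 with Klf10) to 0.999, and every pair under 0.9 included Egr3 or Klf10.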

How the data were processed

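RNA of 8 pooled prostate samples was hybridised to 1 Affymetrix array each. The deposited files hold linear intensities, 1 per probe set. The software behind them is not stated in the sources used here, and the authors had put every array on a 2% trimmed mean of about 125, as the values show. The 57 control probe sets of 31099 were left out, log2(intensity + 16) was taken, arrays were quantile normalised, and those averaging below the 30th percentile over the arrays (log2 4.89) were dropped, which kept 21729. Array medians on the log2 scale differed by up to 0.29 before this. Of the non-control probe sets 20826 had 1 gene symbol, 436 several and 9780 none listed; the Entrez identifiers of 20764 were found in the RefSeq table of GRCr8, with 0 symbols updated.

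Means of the 4 groups were fitted over all 8 arrays with limma 3.58.1 in R 4.3.3 (4 residual degrees of freedom, prior 2.62), with Benjamini-Hochberg adjustment over all probe sets tested and a call at an adjusted p under 0.05. The fit was tested on simulated data. All tested member probe sets are given for the comparison of preparations in control arrays. Between the lineages the main probe sets are given, with the other probe sets of some genes. Of the lists, called genes of low p are named, up to 4 per direction, or, where none was called, up to 2. Not every called gene is named. The lists were read on main probe sets, and 257 of their 288 entries were on the array. The members and lists were chosen with earlier results of these data known. Promoter windows of 300 bases came from RefSeq (GRCr8) and were searched in Python 3.11.15, and plots were drawn with matplotlib 3.10.9. Alternatives were other normalisations, added constants, filters, priors, array weights, a replicate block, fewer groups, gene means over probe sets and leaving out each array. Replicate numbers were not used as pairs in the main fit. Deviations from group means correlated between -0.02 and 0.029 across groups, which cannot show whether the samples were paired. The number of arrays limits the precision of every value.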

Additional observations from a re-analysis of the deposited data

Results flagged for a closer look

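The lineage effect on Egr1 was flagged because it differed between the preparations by a test of the difference itself. The effect in epithelium (0.02 ± 0.12) minus that in whole prostate (-1.49 ± 0.12) was 1.51 ± 0.16 (limma adjusted p = 0.027), and the adjusted p ranged from 1.4e-06 to 0.23 over the alternatives. In whole prostate both vinclozolin arrays were below both control arrays, and in epithelium the groups overlapped. Groups of 2 arrays are too small for a test of single outlying samples.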

How the results depend on the processing

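The counts over all probe sets moved with most settings, and the cause was not tested. Between the preparations, the added constants of 1 and 64 also moved the values of member probe sets that were dim in whole prostate: Nr4a3 came to 5.42 and 3.02, Egr2 to 4.11 and 2.53, and Klf2 to 4.36 and 1.45 on 1386041_a_at and 3.12 and 0.61 on 1394068_x_at. The other dim probe sets moved likewise, to 2.66 and 1.23 and to 2.07 and 0.86 for Nr4a3, 2.50 and 1.33 for Nr4a2 and 4.1 and 3.0 for Klf6. Calls over all probe sets in whole prostate were 379, and became 235 with an added constant of 1, 1133 with 64, 200 without the filter, 965 with a filter at the 50th percentile, 1814 with the trended robust prior, 871 with array weights, 65 with only the groups compared, and 24 to 225 without each array in turn. In epithelium they were 2, and became 1 with median centring, 0 with a constant of 1, 66 with 64, 0 without the filter, 23 with the stricter filter, 205 with the trended prior, 0 with array weights, 0 with only the groups compared, and 0 to 0 without each array. For the difference of effects they were 63, and became 40 with a constant of 1, 262 with 64, 32 without the filter, 169 with the stricter filter, 540 with the trended prior and 5 to 19 without each array. For control epithelium against control whole prostate they were 6051, and 2648 to 5789 without each array. Member calls in whole prostate were 1, with 4 under the trended prior and 0 to 1 without each array. In epithelium they were 0, with 1 under the trended prior. For the difference of effects they were 1, and 0 with a constant of 1, 0 without the filter and 0 to 0 without each array. The median of the members between preparations was 2.33, with 2.06 after median centring, 2.44 with a constant of 1, 2.06 with 64 and 2.46 with the stricter filter, and that of the difference of effects was -0.08, with -0.17 to 0.10 without each array. Where an array was left out, the lone array of its group was assumed to vary like the other groups.

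With the replicate number as a block, 177 probe sets were called in whole prostate, 0 in epithelium and 26 for the difference of effects, of which 0 were members. The numbers are not known to pair the samples. No member value that was called changed sign under any alternative run.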
